A study of Mus musculus with 12 samples.

Results

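The 10 genes described here are 5 CCN genes (Cyr61, Ctgf, Nov, Wisp1 and Wisp2) and 5 genes known as targets of the transcriptional co-activator YAP (Ankrd1, Amotl2, Ajuba, Lats2 and Axl), out of 54532 genes in the deposited count table. They were chosen by symbol, with results of the 44 °C against 37 °C comparison already known, and all 10 passed the filter on low counts that left 14424 genes. The study sequenced mRNA of ATDC5 cells, a mouse line labelled as wild-type cartilage progenitor cells and often cultured to study how chondrocytes form, to ask how temperature affects chondrocyte growth. Cells of all groups were grown at 37 °C in high-sugar DMEM with FBS and were then exposed for 10 min to 37 °C, 40 °C or 44 °C, with 4 libraries per temperature that the design text calls biological replicates. The labels do not say how long after the exposure RNA was taken, and all cells are of 1 line.

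CCN proteins are secreted, cysteine-rich proteins of the extracellular matrix that bind integrins and growth-factor partners. Cyr61 (Ccn1) and Ctgf (Ccn2) act in cartilage growth and are among the best-known targets of YAP and its paralog TAZ, whereas Wisp1 (Ccn4) and Wisp2 (Ccn5) were first described as Wnt-induced genes and Nov is Ccn3. YAP and TAZ reach DNA through TEAD factors, and the Hippo kinases MST and LATS phosphorylate them and keep them out of the nucleus. Mechanical tension, F-actin and RhoA signalling act on that step, and YAP in turn drives some of its own inhibitors, including Lats2 and Amotl2.

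The letters that TEAD factors recognise were looked up in the proximal promoters, because they are the feature that the YAP targets are known to share on the DNA. RefSeq promoter windows of build GRCm38.p6, from 250 bases before to 50 after the start site, were at hand for 6 of the 10 genes (Cyr61, Ankrd1, Amotl2, Ajuba, Lats2 and Axl), in 7 windows because Lats2 has 2. The TEAD core motif GGAATG, searched on both strands, was found in 6 of the 7 windows, 1 per gene, and not in the second Lats2 window, against 14.7% of the 32851 windows in the table (4817 windows). The stretches that hold the matches are printed 5′ to 3′ on the strand of the gene, with the TEAD letters in capitals (CATTCC where the match is on the other strand).
Cyr61, chr3:145649986-145650135, minus strand: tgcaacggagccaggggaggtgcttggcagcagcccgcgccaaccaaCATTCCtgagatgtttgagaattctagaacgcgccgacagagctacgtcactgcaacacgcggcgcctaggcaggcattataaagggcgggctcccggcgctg
Ankrd1, chr19:36119845-36120094, minus strand: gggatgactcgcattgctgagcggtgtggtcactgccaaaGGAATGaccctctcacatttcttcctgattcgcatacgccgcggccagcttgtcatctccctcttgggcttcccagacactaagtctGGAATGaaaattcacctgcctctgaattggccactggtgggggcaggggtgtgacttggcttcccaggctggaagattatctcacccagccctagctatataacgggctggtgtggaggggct
Amotl2, chr9:102717719-102717764, plus strand: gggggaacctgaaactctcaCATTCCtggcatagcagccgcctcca
Ajuba, chr14:54577800-54577867, minus strand: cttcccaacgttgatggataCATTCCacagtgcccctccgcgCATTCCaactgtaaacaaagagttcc
Axl, chr7:25788941-25788983, minus strand: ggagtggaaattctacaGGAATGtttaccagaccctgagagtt

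In Cyr61 the match began 103 bases before the start site, in Amotl2 65 bases and in Axl 233 bases before it. Ankrd1 held matches at 210 and 123 bases before its start, and Ajuba at 186 and 164 bases. Lats2 held its match 5 bases after the start in 1 of its windows, and that stretch is not printed. Of 4 other motifs, all searched on both strands, the heat shock element was searched in the form GAANNTTC only. That form was found in Ankrd1 alone of the 6 genes, against 7.86% of all windows. It lay 118 bases before the start and shared 1 base with a TEAD match. GAANNTTC reads the same on both strands, so the reverse order of its GAA and TTC parts was not searched. The printed Cyr61 stretch holds that reverse order at the same spacing. The share of all windows with the reverse order was not computed. The AP-1 site TGANTCA was in none of the 6 (7.81% of all windows), the CArG box bound by the serum response factor SRF in none (1.63%), and TATAAA in Cyr61 alone, 25 bases before the start (13.6%). A match describes letters in the window and shows no binding.

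Library totals lay between 16269026 and 19506705 counts, at which 3 counts, the upper limit of a count of 0, come to 0.154 to 0.184 CPM (counts relative to the TMM-adjusted library size). A call means a Benjamini-Hochberg adjusted p under 0.05 over all genes in edgeR's quasi-likelihood test. Of all genes tested, 13.7% were called at 44 °C against 37 °C (6.58% higher and 7.11% lower), 0% at 40 °C against 37 °C and 5.02% at 44 °C against 40 °C (1.88% higher and 3.14% lower). The 0 calls at 40 °C against 37 °C compare with 752 of the 14424 genes at an unadjusted p under 0.05, and with 4 genes called by DESeq2. Those 752 are near the share of 0.05 that this threshold passes when no gene differs. The cartilage progenitor label was checked on 9 marker genes, 7 of which passed the filter. Together they summed to 559 to 641 CPM in the 37 °C libraries, 527 to 580 CPM in those at 40 °C and 411 to 537 CPM in those at 44 °C. Most of these sums came from Prrx1 (means of 347, 330 and 262 CPM at 37, 40 and 44 °C) and Twist1 (182, 165 and 150 CPM). Sox9, which directs the cartilage programme, averaged 54.2, 50.9 and 48.2 CPM at 37, 40 and 44 °C, while Sox6 and Comp were near 0 and each marker had reads in some library. The mesenchymal factors Prrx1 (log2 fold change -0.40, adjusted p = 0.0028) and Twist1 (-0.28, adjusted p = 0.00693) were the 2 markers called at 44 °C against 37 °C, both lower, and the mature cartilage genes Col2a1 and Acan were low throughout, at means of 1.21 and 2.13 CPM at 37 °C.

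At 44 °C against 37 °C, 5 of the 10 genes were called higher (Cyr61, Ctgf, Ankrd1, Amotl2 and Lats2), 3 were called lower (Nov, Wisp1 and Wisp2), and Ajuba and Axl were not called. The 8 of 10 called stand beside 13.7% of all genes tested. The groups did not overlap for any of the 8, whereas 8.62% of all genes had every 44 °C library above every 37 °C library and 9.13% had every one below. The median log2 fold change was 0.26 over the 10 genes, against -0.000335 over all genes tested. Because the genes were proposed with this comparison known, their values in it are a description without a p, and nothing is read from the count. Values at 44 °C against 40 °C share the 44 °C libraries and are given in the same way. At 40 °C against 37 °C, which shares the 37 °C libraries, 0 of the 10 genes were called, as were 0% of all genes. In that comparison the groups did not overlap for Cyr61 and Ankrd1, both higher at 40 °C, beside 1.61% of all genes with every 40 °C library higher and 2.23% with every one lower. Between 44 °C and 40 °C 3 of the 10 genes were called, Cyr61 higher and Wisp1 and Wisp2 lower, beside 5.02% of all genes. These 3 were also the ones without overlap, beside 5.28% of all genes with every 44 °C library higher and 5.44% with every one lower.

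**Figure D1:**
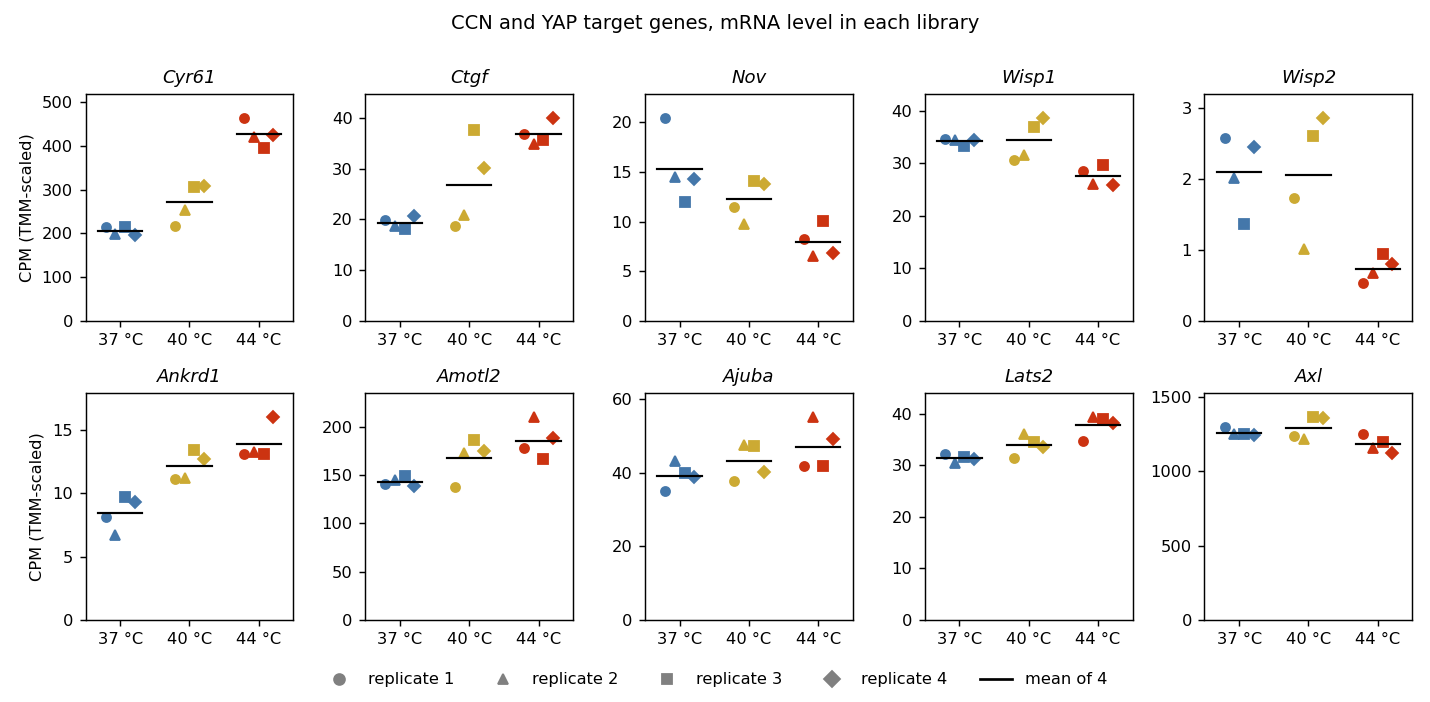
Level of each of the 10 genes in every library, in CPM on TMM-scaled library sizes, with the temperatures in order from 37 to 44 °C; points are the 4 libraries of a temperature and bars are their means. Cyr61 climbs over the 3 temperatures to between 394 and 463 CPM at 44 °C, while Wisp2 lies under 1 CPM in every 44 °C library.

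Cyr61 (ENSMUSG00000028195, chr3:145646976-145649981 on mm10, minus strand) had the largest CCN response in CPM. Its level was 214, 198, 215 and 196 CPM at 37 °C, 218, 252, 305 and 308 CPM at 40 °C and 463, 421, 394 and 425 CPM at 44 °C. Every 40 °C library lay above every 37 °C library, and every 44 °C library lay above every 40 °C library. The log2 fold change was 1.05 ± 0.094 (SE; 95% interval 0.85 to 1.25; 2.07-fold) at 44 °C against 37 °C and 0.65 ± 0.093 (1.57-fold) at 44 °C against 40 °C, and both were called. At 40 °C against 37 °C, Cyr61 was higher by 0.40 ± 0.093 on the log2 scale (95% interval 0.20 to 0.60), a difference between group means that was not called (adjusted p = 0.823). With no filter on low counts that difference was called (adjusted p = 0.00351). Leaving out 40 °C replicate 3 or 4 left a log2 difference of 0.33 each time.

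Ctgf (ENSMUSG00000019997, chr10:24595442-24598683, plus strand), a matrix protein known for its part in fibrosis and in cartilage growth, was far less abundant. Its level was 20.0, 18.7, 18.2 and 20.6 CPM at 37 °C, 18.7, 20.8, 37.7 and 30.2 CPM at 40 °C and 36.8, 35.0, 35.7 and 40.0 CPM at 44 °C. The 44 °C libraries all lay above the 37 °C libraries, while the 40 °C libraries split, with replicates 1 and 2 at the 37 °C level and replicate 3 within the 44 °C range. Between 44 °C and 37 °C the log2 fold change was 0.93 ± 0.17 (95% interval 0.57 to 1.28; 1.91-fold).

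For Ctgf at 40 °C against 37 °C the log2 difference was 0.48 ± 0.17 (95% interval 0.12 to 0.83; adjusted p = 0.823), and it was 0.27 without 40 °C replicate 3. At 44 °C against 40 °C it was 0.45 ± 0.16 and not called, but it was 0.66 and called without 40 °C replicate 3. The SD of Ctgf at 40 °C was 32.7% of its mean, against 5.78% at 37 °C and 6.02% at 44 °C. The gene overlaps the predicted gene Gm15270, which had 5 counts over all libraries.

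Nov (chr15:54745702-54754039, plus strand) encodes Ccn3, which is known to counteract Ctgf in cartilage cells. Its level was 20.4, 14.5, 12.0 and 14.3 CPM at 37 °C, 11.4, 9.76, 14.1 and 13.7 CPM at 40 °C and 8.23, 6.56, 10.1 and 6.86 CPM at 44 °C. All 44 °C libraries lay below all 37 °C libraries, and the 40 °C libraries overlapped both groups. Between 44 °C and 37 °C the log2 fold change was -0.95 ± 0.18 (95% interval -1.33 to -0.57; 0.517-fold).

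At 44 °C against 40 °C, Nov was lower by a log2 fold change of -0.63 ± 0.18, which was not called, but it was called without 40 °C replicate 2 (-0.73) or without 44 °C replicate 3 (-0.77). At 40 °C against 37 °C its log2 difference was -0.32 ± 0.17 (95% interval -0.69 to 0.05; adjusted p = 0.823).

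Wisp1 (chr15:66891320-66923201, plus strand), a CCN protein known to promote the growth of bone and cartilage precursors, was nearly level at 37 and 40 °C. Its level was 34.5, 34.5, 33.2 and 34.4 CPM at 37 °C, 30.6, 31.5, 36.9 and 38.6 CPM at 40 °C and 28.6, 25.9, 29.6 and 25.8 CPM at 44 °C. The 44 °C libraries lay below all others. The log2 fold change was -0.31 ± 0.083 (95% interval -0.49 to -0.14; 0.805-fold) at 44 °C against 37 °C and -0.32 ± 0.083 at 44 °C against 40 °C. The call against 37 °C was lost without any of 37 °C replicates 1, 2 and 4 or 44 °C replicates 2 and 4 (log2 fold changes of -0.31 to -0.29), and the call against 40 °C without any of 40 °C replicates 3 and 4 or 44 °C replicates 2 and 4 (-0.30 to -0.27). The log2 difference at 40 °C against 37 °C was 0.01 ± 0.082 (adjusted p = 0.982).

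Wisp2 (chr2:163820861-163833146, plus strand), which lacks the C-terminal domain of the other CCN proteins, had the log2 fold change furthest from 0 of the 10 genes at 44 °C against 37 °C and also the fewest reads. Its level was 2.57, 2.0, 1.36 and 2.45 CPM at 37 °C, 1.73, 1.01, 2.60 and 2.85 CPM at 40 °C and 0.526, 0.668, 0.937 and 0.80 CPM at 44 °C, where the libraries held 9, 11, 16 and 14 counts. All 44 °C libraries lay below all others. The log2 fold change was -1.51 ± 0.34 (95% interval -2.24 to -0.78; 0.351-fold) at 44 °C against 37 °C and -1.49 ± 0.34 at 44 °C against 40 °C, and the call against 40 °C was lost without any of 40 °C replicates 3 and 4 or 44 °C replicate 2 (-1.44 to -1.29). At 40 °C against 37 °C the log2 difference was -0.03 ± 0.30 (adjusted p = 0.989). Wisp3, the sixth CCN gene of the family, averaged 0.578 ± 0.213 CPM at 37 °C, 0.573 ± 0.176 CPM at 40 °C and 0.788 ± 0.43 CPM at 44 °C (SD, n = 4 each) and was called in none of the 3 comparisons.

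Per transcript length the CCN mRNA pool was nearly all Cyr61. In TPM, which divides counts by gene length, Cyr61 averaged 318 ± 17.8 at 37 °C, 419 ± 75.6 at 40 °C and 671 ± 52.7 at 44 °C, and the 6 CCN genes summed to 379.9 ± 21.1, 485 ± 90.7 and 740 ± 54.3 TPM (SD, n = 4 each). Cyr61 held 83.8% ± 1.31 of that sum at 37 °C, 86.4% ± 1.09 at 40 °C and 90.7% ± 0.746 at 44 °C. Ctgf kept a nearly constant share at 5.57%, 5.93% and 5.56%. The shares of Nov were 4.37%, 2.76% and 1.2% at 37, 40 and 44 °C, and those of Wisp1 5.05%, 4.0% and 2.13%. In order of TPM, Cyr61 led at every temperature, Ctgf, Wisp1 and Nov lay close together at 37 °C (21.1 ± 1.47, 19.2 ± 0.63 and 16.7 ± 4.23 TPM), with Wisp1 and Nov within 1 SD of each other, and Wisp2 followed at 3.41 ± 0.936 TPM. At 44 °C these 4 were spread wider, with Ctgf at 41.0 ± 2.08, Wisp1 at 15.7 ± 1.4, Nov at 8.81 ± 1.92 and Wisp2 at 1.21 ± 0.288 TPM. These are levels in bulk RNA, in which fewer cells that express a gene and less of its RNA per cell cannot be told apart.

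**Figure D2:**
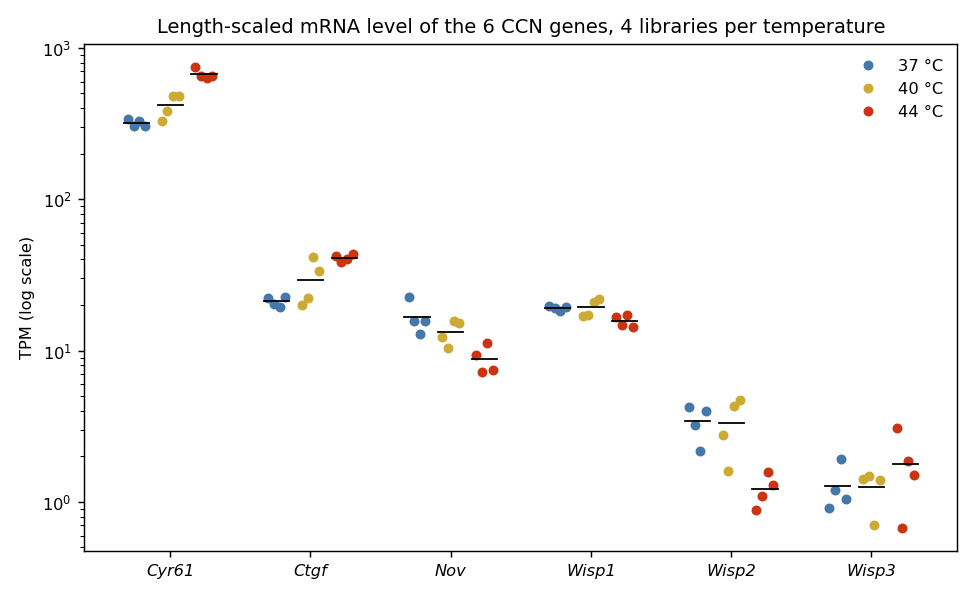
Levels of the CCN genes in TPM on a log axis at 37, 40 and 44 °C; points are libraries and short bars the means of 4. Cyr61 lies far above the others at every temperature (318, 419 and 671 TPM), and Ctgf is higher at 44 °C while Nov, Wisp1 and Wisp2 are lower there.

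Among the YAP targets, Ankrd1 (chr19:36111965-36119844, minus strand), which encodes a stretch-responsive ankyrin-repeat protein, had the largest log2 fold change at 44 °C against 37 °C. Its level was 8.12, 6.68, 9.73 and 9.31 CPM at 37 °C, 11.1, 11.2, 13.4 and 12.7 CPM at 40 °C and 13.1, 13.2, 13.1 and 16.0 CPM at 44 °C. Every library at 40 and 44 °C lay above every 37 °C library, and the 40 and 44 °C libraries overlapped. The log2 fold change was 0.71 ± 0.13 (95% interval 0.44 to 0.98; 1.64-fold) at 44 °C against 37 °C and 0.19 ± 0.12 at 44 °C against 40 °C. At 40 °C against 37 °C it was 0.52 ± 0.13 (95% interval 0.25 to 0.79) and not called (adjusted p = 0.823). The heat shock element in the Ankrd1 promoter printed above is a description of the sequence only.

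Amotl2 (chr9:102716672-102733418, plus strand) encodes an angiomotin-like protein that binds YAP and holds it in the cytoplasm. Its level was 140.3, 145, 149 and 138 CPM at 37 °C, 138, 172, 186 and 175 CPM at 40 °C and 178, 209.9, 167 and 188 CPM at 44 °C. The 44 °C libraries all lay above the 37 °C libraries, and 40 °C replicate 1 lay with the 37 °C group. Its log2 fold change was 0.37 ± 0.086 (95% interval 0.19 to 0.56; 1.3-fold) at 44 °C against 37 °C, 0.23 ± 0.086 at 40 °C against 37 °C (95% interval 0.05 to 0.41; adjusted p = 0.823) and 0.15 ± 0.085 at 44 °C against 40 °C.

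Lats2 (chr14:57689662-57758388, minus strand) encodes a Hippo kinase that inactivates YAP. Its level was 32.2, 30.4, 31.6 and 31.2 CPM at 37 °C, 31.3, 36.1, 34.4 and 33.5 CPM at 40 °C and 34.6, 39.3, 38.9 and 38.1 CPM at 44 °C. No 44 °C library overlapped the 37 °C libraries. The log2 fold change at 44 °C against 37 °C was 0.27 ± 0.066 (95% interval 0.13 to 0.41; 1.2-fold), and its call was lost without 37 °C replicate 2 or 4 or 44 °C replicate 2 (0.25 to 0.26). Its log2 differences of 0.11 at 40 °C against 37 °C (adjusted p = 0.823) and 0.16 at 44 °C against 40 °C were not called. Lats2 overlaps 3 predicted genes, Gm20430, Gm26440 and Gm49361, which together had 234 counts over all libraries.

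Ajuba (chr14:54567472-54577558, minus strand) encodes a LIM protein that restrains LATS kinases at cell junctions. Its level was 35.0, 43.0, 39.9 and 38.7 CPM at 37 °C, 37.6, 47.4, 47.3 and 40.0 CPM at 40 °C and 41.8, 55.0, 41.7 and 49.1 CPM at 44 °C, and the groups overlapped. The log2 difference at 44 °C against 37 °C was 0.26 ± 0.10 (95% interval 0.04 to 0.48), which was not called but was called without 44 °C replicate 1 (0.32). Its log2 differences of 0.14 at 40 °C against 37 °C (adjusted p = 0.823) and 0.12 at 44 °C against 40 °C were not called.

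Axl (chr7:25757273-25788705, minus strand), a receptor tyrosine kinase for Gas6, was the most abundant of the 10 genes at 783 ± 27.8 TPM at 37 °C, 802 ± 65.2 TPM at 40 °C and 748 ± 50.6 TPM at 44 °C (SD, n = 4 each). Its level was 1299.8, 1251, 1251 and 1246 CPM at 37 °C, 1235, 1220.5, 1365 and 1359 CPM at 40 °C and 1249, 1161, 1196 and 1125 CPM at 44 °C. The log2 difference was -0.09 ± 0.049 at 44 °C against 37 °C (95% interval -0.20 to 0.01), 0.04 at 40 °C against 37 °C (adjusted p = 0.88) and -0.13 ± 0.049 at 44 °C against 40 °C, with no call in any comparison.

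**Figure D3:**
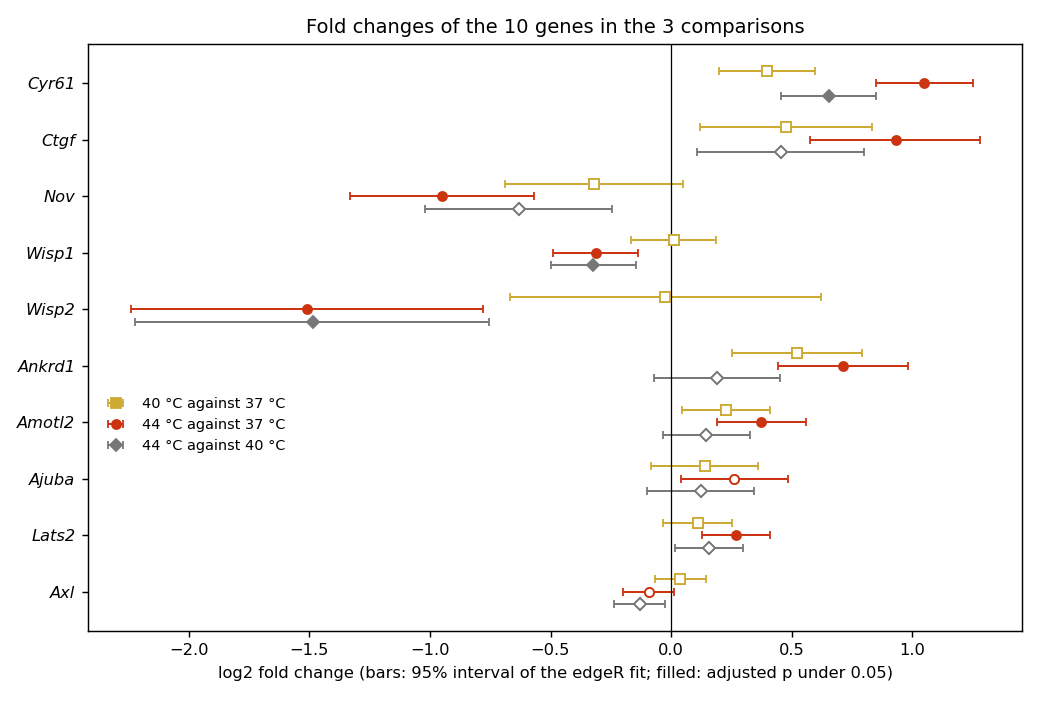
Log2 fold change of each of the 10 genes with its 95% interval from edgeR in the 3 pairwise comparisons, the hotter group over the cooler one, with filled symbols where the gene was called. The 8 genes called at 44 °C against 37 °C lie on both sides of 0. At 40 °C against 37 °C no gene was called, and the intervals of Cyr61, Ctgf, Ankrd1 and Amotl2 lie above 0. In that comparison 752 of all 14424 genes tested had an unadjusted p under 0.05 in the edgeR test.

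The place of the 40 °C mean relative to those at 37 and 44 °C differed between genes. The 40 °C difference from 37 °C was expressed as a share of the step in mean CPM (not log2) between 37 and 44 °C. That share was 29.6% for Cyr61, 42.8% for Ctgf, 38.9% for Lats2, 57.7% for Amotl2 and 67.9% for Ankrd1 among genes higher at 44 °C. Among the genes lower at 44 °C it was 41.3% for Nov, 3.33% for Wisp2 and -3.27% for Wisp1, whose 40 °C mean lay outside the span of the other two. Axl, which was not called, also lay outside it, at -41.6%, and Ajuba lay at 50.9%. At 40 °C replicates 3 and 4 lay above replicates 1 and 2 for Cyr61, Ctgf, Nov, Wisp1, Wisp2, Ankrd1, Amotl2 and Axl. They did not for Ajuba and Lats2. Genes with opposite differences at 44 °C thus moved together among these 4 libraries. The share of all genes with that split was not computed, so nothing is read from it. Over all genes, libraries of a group also differed along a shared axis that held 29.8% of the variance within groups, on which 40 °C replicates 1 to 4 scored 0.218, -1.55, 0.3 and 1.03. Its part in these values was not tested.

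The genes whose profile over the 12 libraries was most like that of Cyr61, by the root mean square difference of centred log2 CPM among 10546 genes with a mean of at least 5 CPM, were Hspa1b (0.138), Tmem171 (0.138), Ctgf (0.169), Hbegf (0.177) and Tnc (0.184). For Ctgf they were Cyr61 (0.169), Tmem171 (0.202), Plau (0.221), Cfap43 (0.223) and Tnc (0.227). Hspa1b, an inducible heat shock chaperone whose reads counting could have split with its near-identical copy Hspa1a, averaged 8.68 CPM at 37 °C, 10.3 CPM at 40 °C and 18.8 CPM at 44 °C. Hbegf, a ligand of the EGF receptor, averaged 22.6, 26.6 and 38.6 CPM, and Plau, the urokinase protease, 189, 206 and 334 CPM at 37, 40 and 44 °C. Tnc, a matrix protein of tension-bearing tissue, averaged 32.6, 35.1 and 53.7 CPM, and Tmem171 averaged 13.1, 16.2 and 23.8 CPM.

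**Figure D4:**
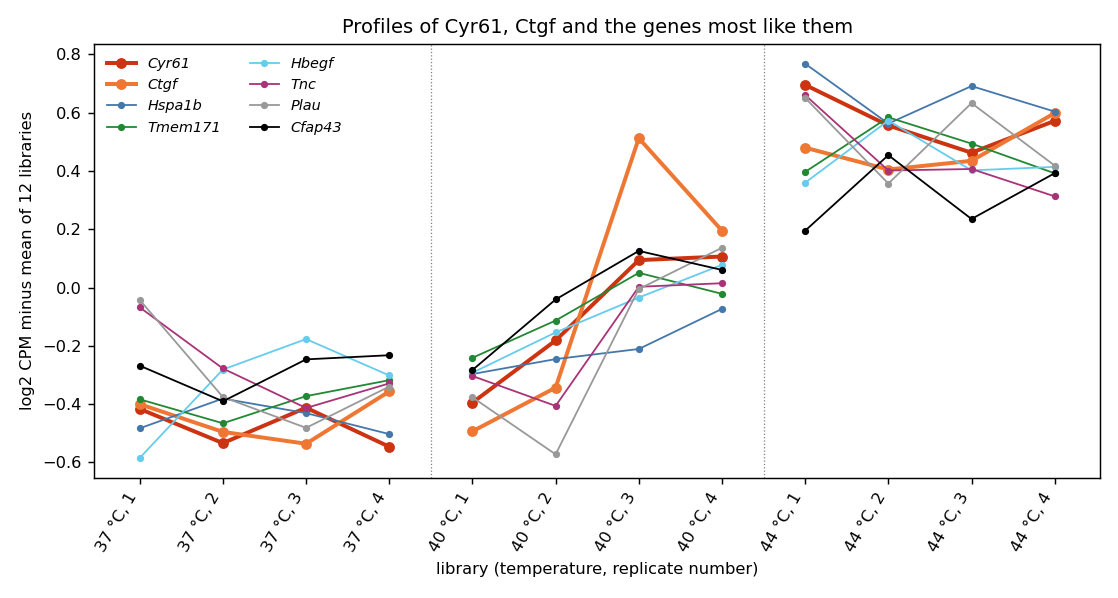
Centred log2 CPM over the 12 libraries, ordered by temperature, for Cyr61 and Ctgf and for the genes with the most similar profiles. All lines are higher at 44 °C than at 37 °C, and Ctgf departs most from the others in 40 °C replicate 3.

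The mRNAs of the YAP and TEAD machinery itself were not called at 44 °C against 37 °C. Yap1 averaged 172 ± 11.9 CPM at 44 °C and 189 ± 10.4 CPM at 37 °C (SD, n = 4 each; log2 fold change -0.13, adjusted p = 0.279), and Wwtr1, which encodes TAZ, 249 CPM at 44 °C and 272 CPM at 37 °C (-0.13, adjusted p = 0.242). Tead1 averaged 259 ± 7.79 CPM at 44 °C and 257 ± 6.45 CPM at 37 °C (0.01, adjusted p = 0.918). For Tead2, Tead3 and Tead4 the log2 fold changes were 0.16, 0.03 and 0.18 (adjusted p = 0.0977, 0.869 and 0.084). Of the kinases and their upstream scaffold, Stk3 (0.17, adjusted p = 0.0662), Stk4 (0.09, adjusted p = 0.329), Lats1 (0.15, adjusted p = 0.182) and Nf2 (0.13, adjusted p = 0.254) were not called, although Lats1 was called without 44 °C replicate 1 (adjusted p = 0.0416).

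Of 28 genes of the Hippo core, 27 passed the filter, and 2 were called higher and 2 lower at 44 °C against 37 °C, with a median log2 fold change of 0.06. The 14.8% called were close to the 13.7% of all genes. Wwc2, a scaffold related to the Hippo activator Kibra, rose by a log2 fold change of 0.31 ± 0.060 (115 CPM at 44 °C and 92.9 CPM at 37 °C, adjusted p = 0.00516). Vgll3, a TEAD cofactor, rose by 0.56 ± 0.17 (11.8 CPM at 44 °C and 7.96 CPM at 37 °C, adjusted p = 0.0431). Vgll4, a TEAD cofactor that competes with YAP, had a log2 fold change of -0.26 ± 0.077 (48.2 CPM at 44 °C and 57.6 CPM at 37 °C, adjusted p = 0.0402), and Sav1, the scaffold of the MST kinases, -0.20 ± 0.055 (93.7 CPM at 44 °C and 108 CPM at 37 °C, adjusted p = 0.0254). The calls of Vgll3, Vgll4 and Sav1 were each lost without any of 5 or 6 of the 8 libraries compared (adjusted p of 0.0514 to 0.142). At 44 °C against 40 °C 0 of the 27 were called higher and 2 lower (7.41% called, against 5.02% of all genes). These were Sav1 and Vgll4, whose calls were each lost without any of 6 of the 8 libraries (adjusted p of 0.0525 to 0.148). At 40 °C against 37 °C 0 of the 27 were called.

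Of 16 other genes of published YAP signatures, 15 passed the filter, and at 44 °C against 37 °C 1 was called higher and 3 lower (26.7% called, against 13.7% of all genes), with a median log2 fold change of -0.11. Ccdc80, a secreted matrix protein, fell to 2.13 CPM at 44 °C, against 4.26 CPM at 37 °C (-1.0 ± 0.21, adjusted p = 0.00688). Myof, a membrane-repair protein, had a log2 fold change of -0.21 ± 0.046 (586 CPM at 44 °C and 679 CPM at 37 °C, adjusted p = 0.00848), and Arhgef17, a RhoA exchange factor, -0.27 ± 0.064 (192 CPM at 44 °C and 231 CPM at 37 °C, adjusted p = 0.0146). Crim1, a transmembrane protein that binds bone morphogenetic proteins, was higher by 0.15 ± 0.049 and only just called (adjusted p = 0.04999), and its call was lost without any 1 of the 8 libraries (adjusted p of 0.0688 to 0.13).

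Of 16 genes for integrins and other receptors that CCN proteins bind, 14 passed the filter, and at 44 °C against 37 °C 0 were called higher and 3 lower (21.4% called, against 13.7% of all genes), with a median log2 fold change of -0.13. The integrin subunit Itga6 had a log2 fold change of -0.22 ± 0.048 (adjusted p = 0.00935), the integrin subunit Itgb5 -0.40 ± 0.10 (adjusted p = 0.0234) and the endocytic receptor Lrp1 -0.45 ± 0.12 (adjusted p = 0.0238). The calls of Itgb5 and Lrp1 were each lost without any of 37 °C replicates 1 and 4 or 44 °C replicates 2 and 4 (adjusted p of 0.0545 to 0.0764).

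Actin and SRF genes, which respond to the same cytoskeletal inputs as YAP, were called in both directions. Of 20 such genes 18 passed the filter, and 3 were called higher and 2 lower at 44 °C against 37 °C (27.8% called, against 13.7% of all genes), with a median log2 fold change of 0.03. Srf itself rose by 0.30 ± 0.07 (109 CPM at 44 °C and 88.2 CPM at 37 °C, adjusted p = 0.0125), the LIM protein Fhl2 by 0.47 ± 0.068 (51.3 CPM at 44 °C and 37.1 CPM at 37 °C, adjusted p = 0.00084) and cytoplasmic Actb by 0.20 ± 0.04 (adjusted p = 0.00612). Smooth-muscle actin Acta2 averaged 71.5 CPM at 44 °C and 121 CPM at 37 °C (-0.76 ± 0.081, adjusted p = 7.66e-05), and it averaged 146 CPM at 40 °C. Vinculin, Vcl, a focal-adhesion protein, had a log2 fold change of -0.17 ± 0.051 (adjusted p = 0.0397), and its call was lost without any library but 44 °C replicate 1 (adjusted p of 0.0556 to 0.115).

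Of 23 genes that feed RhoA or TGF-beta signals into these targets, 22 passed the filter, and at 44 °C against 37 °C 0 were called higher and 3 lower, with a median log2 fold change of -0.05. The 13.6% called were close to the 13.7% of all genes. Rhob, a small GTPase, averaged 87.1 CPM at 44 °C and 128 CPM at 37 °C (-0.56 ± 0.10, adjusted p = 0.00387), with 102 CPM at 40 °C. The G-protein subunit Gna12 had a log2 fold change of -0.25 ± 0.067 (adjusted p = 0.0263) and the RhoA exchange factor Arhgef12 -0.17 ± 0.046 (adjusted p = 0.0282), and both calls were lost without any of several single libraries (adjusted p of 0.0632 to 0.0892). Over the 5 lists, 0 genes were called at 40 °C against 37 °C. Between 44 °C and 40 °C, 2 YAP signature genes (Myof and Ccdc80), 2 receptors (Itgb5 and Lrp1) and 2 signalling genes (Arhgef12 and the lysophosphatidic acid receptor Lpar1) were called, all lower at 44 °C. Of the actin genes Fhl2 was called higher there, and Acta2, Vcl and the actin crosslinker Flna lower. The shares called were 13.3% of the YAP signature genes, 14.3% of the receptors, 9.09% of the signalling genes and 22.2% of the actin genes tested. Of all genes tested, 5.02% were called there (1.88% higher and 3.14% lower). The call of Acta2 held under all 15 alternatives, and that of Fhl2 was lost under 3 of them, among them the fit without 40 °C replicate 1 (adjusted p = 0.0506). Each of the other 8 genes called against 40 °C in these 4 lists lost its call without any of 4 to 7 of the 8 libraries, taken singly (adjusted p of 0.0523 to 0.131).

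**Figure D5:**
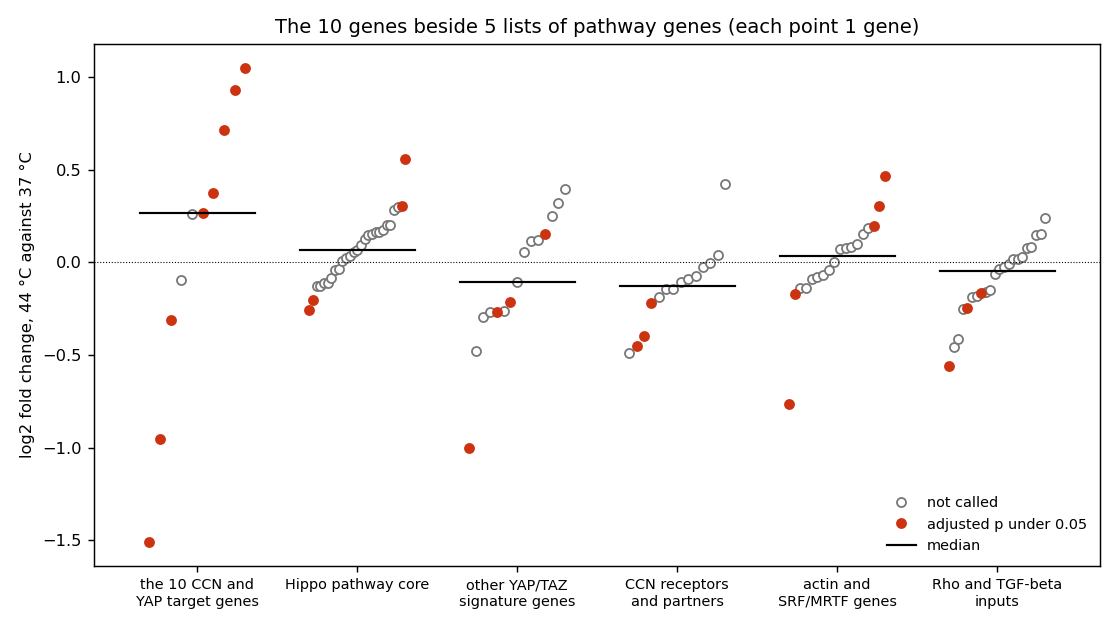
Log2 fold change at 44 °C against 37 °C of every gene past the filter in the 10-gene set and in the 5 pathway lists; each point is a gene, filled where it was called, and bars are medians. The 10 genes, chosen with this comparison known, spread from -1.51 to 1.05, and the medians of the 5 lists lie between -0.13 and 0.06.

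Markers of other cells in which CCN or YAP target genes are well known were read in the same libraries. The 5 endothelial markers summed to 2.49 to 3.70 CPM at 37 °C, 2.97 to 4.22 CPM at 40 °C and 4.25 to 6.19 CPM at 44 °C. Of these, 3 passed the filter, and none was at 0 in all libraries. Pecam1 (1.85 CPM at 44 °C and 0.835 CPM at 37 °C, adjusted p = 0.01006) and Cdh5 (0.66 CPM at 44 °C and 0.275 CPM at 37 °C, adjusted p = 0.0428) were called higher. The 37 °C mean of Cdh5 lay near the limit of 3 counts. Kdr (2.285 CPM at 44 °C and 1.66 CPM at 37 °C, adjusted p = 0.413) was not called. Tek (0.044 CPM at 44 °C and 0.206 CPM at 37 °C) and Vwf (0.25 CPM at 44 °C and 0.313 CPM at 37 °C) did not pass the filter, and both means were lower at 44 °C. The 7 striated-muscle markers summed to 41.1 to 52.5 CPM at 37 °C, 32.7 to 64.7 CPM at 40 °C and 43.7 to 53.0 CPM at 44 °C, nearly all of it Tnnt2, with Myod1, Myog and Actc1 at 0. The 5 macrophage markers summed to 31.3 to 47.0 CPM at 37 °C, 24.3 to 34.9 CPM at 40 °C and 20.1 to 32.9 CPM at 44 °C. Most of that was Cd68 (means of 31.5, 25.3 and 23.9 CPM at 37, 40 and 44 °C), while Ptprc and Csf1r were near 0 and Adgre1 was at 0. Mpeg1 was called lower at 44 °C against 37 °C (1.86 CPM at 44 °C and 5.33 CPM at 37 °C, adjusted p = 0.00132). Whether such cells were present was not tested. The part of these markers in the differences of the 10 genes was not tested either. Nor was that of the lower summed progenitor markers at 44 °C, which were mostly Prrx1 and Twist1.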

How the data were processed

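Messenger RNA was sequenced in 12 libraries of ATDC5 cells, 4 per temperature. The labels do not say whether replicates came from separate cultures, so p-values measure the spread between these libraries. The authors deposited 1 table of whole read counts, in which each library has its own column. The tools, per the submitters' processing notes, were HISAT2 2.0.5, fastp, featureCounts 1.5.0-p3 and StringTie 1.3.3b, on build mm10; their roles and order are not given in the sources used here. Poly-T beads selected the RNA, per the labels' protocols. No source says that strand was used in counting, so overlapping genes cannot be told apart. Counts summed to 16269026 to 19506705 per library. Limits of 3 counts cover counting error only.

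Counts were fitted in R 4.3.3 with edgeR 4.0.16 (filterByExpr at 10 counts, or 15 in total, TMM, glmQLFit and glmQLFTest) with 1 mean per temperature over all 12 libraries, and p-values were adjusted by Benjamini and Hochberg over 14424 genes. SEs and 95% intervals come from that fit. CPM are on TMM-scaled library sizes, and TPM were computed from the deposited counts and gene lengths. Profiles were compared as log2 CPM (prior count 2). The test was checked on simulated counts. DESeq2 1.42.0 was an alternative. Alternatives also covered no TMM, no filter, the 2 groups compared alone, a stricter threshold, a replicate block, a model with the axis of differences within groups and leaving out each library.

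The 10 genes and the pathway and marker lists were chosen with earlier results of these data known. The text names the 10 genes, 12 genes of the YAP, TEAD and Hippo machinery and the CCN family whatever their values, up to 6 called genes per pathway list in order of p, and the 5 genes most like Cyr61 and Ctgf. Promoter sequences are RefSeq's, GRCm38.p6.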

Additional observations from a re-analysis of the deposited data

Results flagged for a closer look

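Each group of 4 libraries of each of 48 named genes was searched for a library whose gap to its nearest neighbour exceeded, as a share of the group's range, Dixon's 95% critical value. Of 144 groups 10 held one, and chance flags about 1 in 20. Among the CCN and YAP target genes, Ankrd1 stood at 16.0 CPM in 44 °C replicate 4, above 13.1 to 13.2 CPM in the other 44 °C libraries. Axl stood at 1299.8 CPM in 37 °C replicate 1, above 1246 to 1251 CPM in the others of its group. Wisp1 stood at 33.2 CPM in 37 °C replicate 3, below 34.4 to 34.5 CPM, a gap that is small beside its SD at 40 °C.

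In the pathway lists, Tead1 was at 273 CPM in 40 °C replicate 1, above 251 to 254 CPM in the others. Tead2 was at 48.1 CPM in 44 °C replicate 1, above 41.4 to 42.5 CPM. Stk3 was at 81.7 CPM in 40 °C replicate 2, below 87.6 to 88.5 CPM. Sav1 was at 117 CPM in 40 °C replicate 4, above 104 to 106 CPM. Ccdc80, called lower at 44 °C against 37 °C, was at 3.21 CPM in 44 °C replicate 1, above 1.7 to 1.82 CPM in the other 44 °C libraries. Acta2 was at 109 CPM in 37 °C replicate 1, below 124 to 127 CPM. Actb was at 2176 CPM in 44 °C replicate 2, below 2236 to 2245 CPM. The causes were not tested.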

How the results depend on the processing

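No difference that was called changed its direction under any alternative. Of 150 values of the 10 genes under 15 alternatives at 44 °C against 37 °C, 134 kept their side of the threshold, 12 lost the call and 4 gained it; at 44 °C against 40 °C these were 128, 12 and 10. Counts below are genes called, and the cause of each change was not tested. DESeq2 called 4 genes at 40 °C against 37 °C and 1211 at 44 °C against 40 °C, among them 6 Hippo genes, 4 CCN receptors and 5 RhoA and TGF-beta genes, of which it called 8 at 44 °C against 37 °C. At an adjusted p under 0.01, 630 genes remained called at 44 °C against 37 °C, with 4 of the 10 genes, 1 Hippo gene, 2 YAP signature genes, 1 receptor, 3 actin genes and 1 RhoA gene, and 270 at 44 °C against 40 °C, with 1 of the 10 genes, 1 actin gene and 0 of the other lists. Without TMM, calls split into 1096 higher and 912 lower at 44 °C against 37 °C (949 and 1026 with TMM) and into 396 and 355 at 44 °C against 40 °C (271 and 453 with TMM), and at 44 °C against 40 °C 1 Hippo gene, 1 YAP signature gene, 1 receptor, 2 actin genes and 0 RhoA genes were called. With no filter, 13 genes and 1 of the 10 were called at 40 °C against 37 °C, and 5 of the 10 and 0 RhoA genes at 44 °C against 40 °C. With the 2 groups alone, 334 genes were called at 44 °C against 40 °C, with 1 of the 10, 1 actin gene and 0 of the other lists.

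With the axis of differences within groups added to the model, which is computed from the same counts so that its p-values are too small, 5034 genes were called at 44 °C against 37 °C, with 16 Hippo genes, 8 YAP signature genes, 7 receptors and 12 RhoA genes. At 40 °C against 37 °C it called 596, with 2 of the 10 (Cyr61 and Ankrd1), 2 Hippo genes, 1 YAP signature gene, 2 actin genes and 1 RhoA gene. At 44 °C against 40 °C it called 3217, with 6 of the 10, 9 Hippo genes, 6 YAP signature genes, 6 receptors, 8 actin genes and 6 RhoA genes.

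Leaving out 1 library at a time gave 979 to 3355 genes at 44 °C against 37 °C, 6 to 9 of the 10, 1 to 5 Hippo genes, 1 to 4 receptors and 1 to 7 RhoA genes. At 44 °C against 40 °C it gave 394 to 1265 genes, 1 to 4 of the 10, 0 to 2 Hippo genes, 0 to 4 YAP signature genes, 0 to 3 receptors, 2 to 4 actin genes and 0 to 3 RhoA genes.

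Whether replicate numbers pair the libraries was not settled. Deviations of same-numbered libraries correlated at -0.207 to 0.366, over 0.1 in 3 of 12 pairs. A library correlated best with its own number in 7 of 24 cases, each a choice among 4 libraries. With a replicate block 2557 genes were called at 44 °C against 37 °C (1975 without it), with 9 of the 10 (8 without it), and 0 RhoA genes at 44 °C against 40 °C. Depth limits Wisp2 most, with 9 to 16 counts per library at 44 °C.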
